A study of Drosophila melanogaster with 9 samples.

Results

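The genes described here are 50 genes whose transcripts stood above the 0 hr level in *brat*-null larval brains both 9 and 18 hr after Insensible (Insb) was switched on. They were picked from the measured values. A gene had to have a mean over the 9 libraries of at least 5 counts per 1000000 counted reads (CPM), all 6 values at 9 and 18 hr above all 3 values at 0 hr, and a mean at 9 hr and at 18 hr of at least 1.5 times the mean at 0 hr. Of 14560 genes in the table, 7862 reached 5 CPM and 61 of these, or 0.776%, met every condition. The rule then left out 4 genes with CR names and 7 of 8 genes that it lists by name, among them *insb* itself and *Lim3*. The other gene on that list, *ase*, did not meet the conditions. Because the values at 9, 18 and 0 hr chose the genes, their distance from 0 hr is given below as a description and was not tested.

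All larvae were *brat*11/*Df(2L)Exel8040* and carried *2xTub-Gal80ts*, *Wor-Gal4* and *UAS-insb*, so that the loss of *brat* and the uninduced transgene were common to every group. *Wor-Gal4* drives transgenes in neuroblasts, and the temperature-sensitive Gal80 blocks Gal4 at 25°C but not at 33°C. The study's results describe the driver as *Wor-Gal4,AseGal80*, with activity restricted to type II neuroblasts. Its sequencing methods, followed here, do not list *AseGal80*. Larvae were grown for 5 days. The 0 hr larvae stayed at 25°C, and the 9 hr and 18 hr larvae spent their last 9 or 18 hr at 33°C, with 3 libraries of pooled whole brains for each time. Time with Insb and time in the heat cannot be told apart in this design, and in whole brains neither can fewer cells of a type and less RNA per cell.

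Brains without the translational repressor Brat fill with type II neuroblasts, the stem cells that normally produce intermediate neural progenitors (INPs). Insb is a nuclear co-repressor that dampens transcription driven by Notch, a receptor whose activity keeps neuroblasts undifferentiated. The 50 genes fall under many different functions, and 26 of them are grouped below by what their products are known to do.

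In the 9 libraries a level of 5 CPM stood for 132.7 to 185.5 reads, from totals of 26530000 to 37110000 counts. The induced gene followed the labels: *insb* (*CG6520*, on chromosome 2R) had 33.2, 32.7 and 35.8 CPM at 0 hr, 375, 393 and 398 CPM at 9 hr and 317, 330 and 357 CPM at 18 hr. The 8 markers of type II neuroblasts summed to 2699 to 2873 CPM at 0 hr, 2406 to 2441 CPM at 9 hr and 1972 to 2692 CPM at 18 hr. By edgeR (adjusted p under 0.05, change of at least 1.5-fold), 1 of them was called lower at each time and 0 higher. That gene was *tll*, with log2 fold changes of -1.04 at 9 hr and -1.10 at 18 hr. Of all genes tested, 1.19% were called lower at 9 hr and 0.278% at 18 hr. *Sp1* moved up (0.26 and 0.41, not called), so the sum does not stand for each marker. At 9 hr, replicates 2 and 3 were nearly copies, with a median chi-square of 0.812 per gene, against 2.03 to 6.26 in the other replicate pairs. The noise of sampling reads alone gives 0.91 if both mates count and 0.455 if reads count singly. The difference between these replicates was thus within that noise only if both mates count. Replicates 2 and 3 at 9 hr were counted as 1 sample in each mean ± SD. The edgeR fits took them as separate libraries with a dispersion shared by all times. Their SE and p-values therefore treat near copies as independent, and fewer genes were called against 0 hr with the pair summed. Summed CPM of 6 fat body markers reached 850 in 18 hr replicate 1 but only 28.3 and 46.0 in the other 18 hr libraries, against 20.9 to 316 at 9 hr and 22.5 to 153 at 0 hr. Summed CPM of 8 hemocyte markers was 454 in the same library, against 72.9 to 250 in the other 8, and none of the markers on either list was without reads in the whole series.

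The increase was moderate for most of the 50 genes. The ratio of the 9 hr mean to the 0 hr mean had a median of 2.09 and ran between 1.53 and 8.28, and the ratio at 18 hr had a median of 1.66 and ran between 1.51 and 6.01. Over the 7862 genes above the minimum the medians were 1.01 and 1.00. A ratio of at least 2 was reached by 28 members at 9 hr, by 12 at 18 hr and by 11 at both times, while 19 had a smaller ratio below 1.6. Just inside the threshold lay *CG16771*, *Ir76a* and *CG1550*, with smaller ratios of 1.507, 1.511 and 1.513. Just outside lay *Asph*, *Rab9* and *CG9114*, with 1.483, 1.471 and 1.464. In read depth the members were mostly thin, with a median mean of 15.3 CPM against 49.6 CPM for the genes above the minimum (CPM takes no account of gene length), and 16 of them averaged under 10 CPM.

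**Figure D1:**
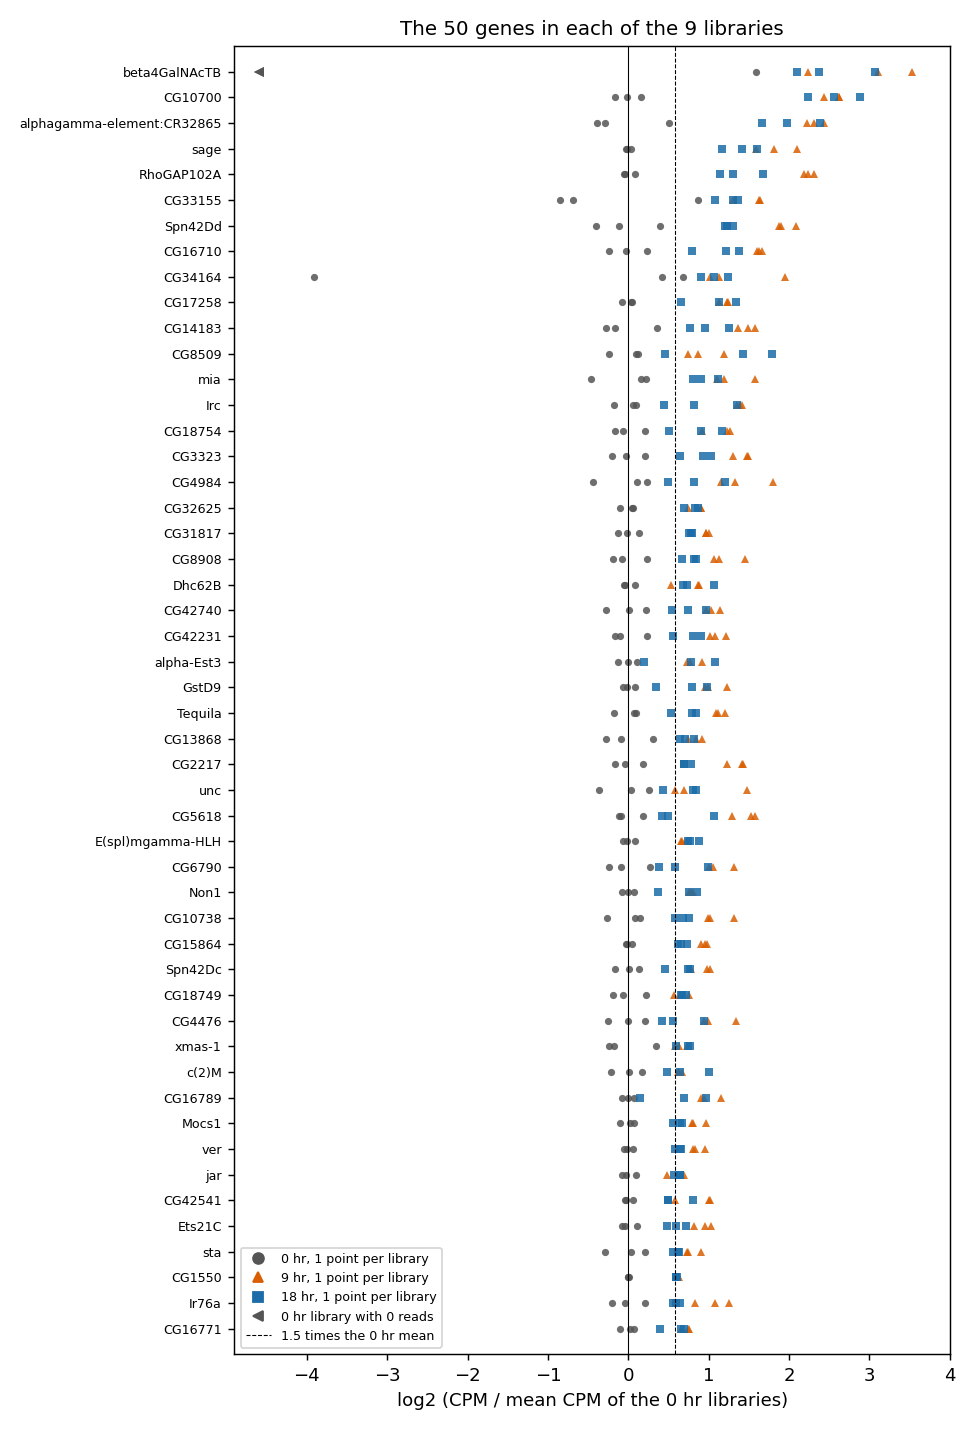
Level of each of the 50 genes in each library, as log2 of the CPM over the mean CPM of the 3 libraries at 0 hr, with the genes ordered by the smaller of their ratios at 9 and 18 hr. Circles are 0 hr, triangles 9 hr and squares 18 hr libraries, the dashed line marks 1.5 times the 0 hr mean, and arrowheads mark 0 hr libraries with 0 reads. By the rule no 0 hr library reaches the 9 and 18 hr libraries of its gene, and for most genes the 18 hr squares sit left of the 9 hr triangles.

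A group of 3 members averaged at least 4 times the 0 hr level at both times. *CG10700* (chr2L:19077276-19079028 of dm6, minus strand, protein coding) had 1.55, 1.395 and 1.75 CPM at 0 hr, 8.44, 9.67 and 9.65 CPM at 9 hr and 7.41, 9.21 and 11.6 CPM at 18 hr. Its ratio was 5.91 at 9 hr and 6.01 at 18 hr, and the libraries of the later times overlapped. The non-coding transcript *alphagamma-element:CR32865*, which comes from the heat shock locus 87C, had 2.14, 2.01 and 3.72 CPM at 0 hr, 12.2, 14.2 and 13.0 CPM at 9 hr and 8.29, 13.7 and 10.3 CPM at 18 hr. The third was *beta4GalNAcTB*, which encodes an enzyme that adds N-acetylgalactosamine to glycans. It had 0, 262 and 0 reads (0, 8.91 and 0 CPM) at 0 hr, 34.3, 14.1 and 25.5 CPM at 9 hr and 12.7, 25.0 and 15.3 CPM at 18 hr. Its 0 hr level rested on a single library, and its 9 and 18 hr libraries overlapped.

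The most reads fell on genes of the ribosome and of RNA. *sta*, on chromosome X, encodes ribosomal protein SA of the small subunit. It had 3360, 2991 and 2375 CPM at 0 hr, 5457, 4829 and 4852 CPM at 9 hr and 4457, 4297 and 4504 CPM at 18 hr. The mean was 5149 ± 436 CPM at 9 hr (SD, n = 2) and 4419 ± 108 CPM at 18 hr (SD, n = 3), against 2909 ± 497 CPM at 0 hr (SD, n = 3), and all 18 hr libraries lay below all 9 hr libraries. Without 0 hr replicate 3, the lowest of its group, the 18 hr ratio of *sta* was 1.39 in place of 1.52. *Non1*, a nucleolar GTPase needed to make the large ribosomal subunit, had 905, 858 and 956 CPM at 0 hr, 1586, 1532 and 1560 CPM at 9 hr and 1173, 1635 and 1536 CPM at 18 hr. Only 18 hr replicate 1 stood clearly below the 9 hr level. *xmas-1*, a gene of nuclear mRNA export, had 9.28, 9.63 and 13.8 CPM at 0 hr, 17.0, 16.4 and 18.2 CPM at 9 hr and 16.5, 18.2 and 18.6 CPM at 18 hr, with the later times overlapping. It shares its current symbol, *xmas*, with a more abundant entry, *xmas-2*, which is not a member. *xmas-2* averaged 53.5 CPM at 0 hr, 74.0 CPM at 9 hr and 80.6 CPM at 18 hr. Its ratio was 1.382 at 9 hr, under the threshold, and 1.505 at 18 hr.

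Transcription factors were represented by *E(spl)mgamma-HLH*, *Ets21C* and *sage*. *E(spl)mgamma-HLH* encodes a bHLH repressor of the Enhancer of split complex and is a direct target of Notch in neuroblasts. It had 49.4, 48.0 and 52.9 CPM at 0 hr, 79.7, 78.8 and 82.5 CPM at 9 hr and 83.8, 85.2 and 92.1 CPM at 18 hr. It was the only member in which every 18 hr library lay above every 9 hr library, an order that 6.78% of all genes above 5 CPM showed. *Ets21C*, an ETS factor induced by JNK signalling and stress, had 11.1, 9.73 and 10.1 CPM at 0 hr, 18.1, 21.0 and 19.97 CPM at 9 hr and 14.4, 15.6 and 17.0 CPM at 18 hr, and the 18 hr libraries were all below the 9 hr libraries. *sage* encodes a bHLH factor known from the salivary gland. It had 5.27, 5.04 and 5.09 CPM at 0 hr, 22.0, 15.5 and 18.0 CPM at 9 hr and 11.5, 15.6 and 13.7 CPM at 18 hr, with little spread at 0 hr and more at the later times.

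**Figure D2:**
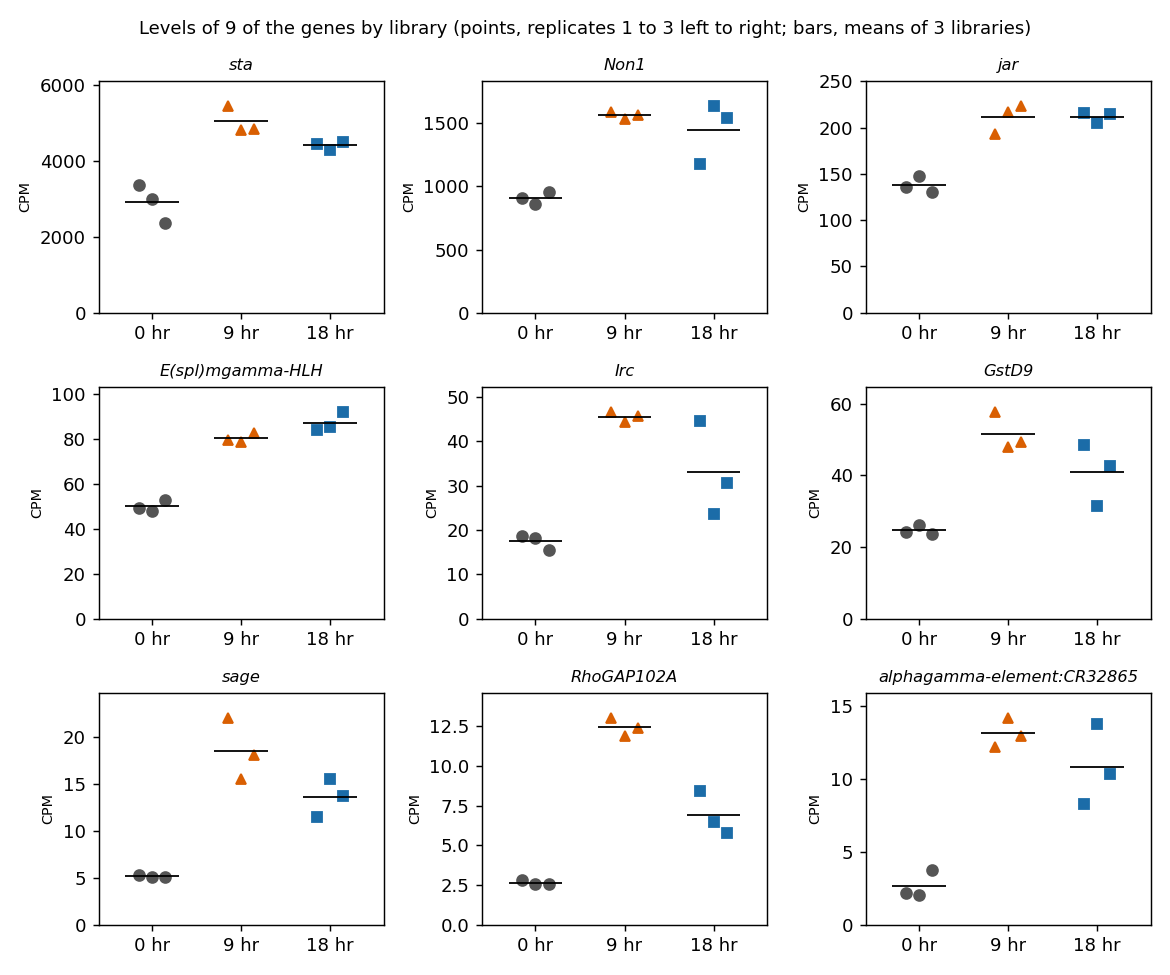
CPM of 9 of the genes in each library, with time on the x axis, replicates 1 to 3 as points and the mean of the 3 libraries as a bar. *sta* is highest with 2375 to 5457 CPM, *E(spl)mgamma-HLH* is highest at 18 hr with 83.8 to 92.1 CPM, and *RhoGAP102A* drops at 18 hr to 5.78 to 8.41 CPM, against 11.9 to 13.0 CPM at 9 hr.

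A further 6 members act in the cytoskeleton or in cilia. *jar* encodes myosin VI, the motor that walks towards the minus end of actin filaments and is used by dividing neuroblasts. It had 136, 147 and 131 CPM at 0 hr, 193, 216 and 223 CPM at 9 hr and 216, 204 and 215 CPM at 18 hr, and the later times overlapped. *CG1550*, whose product belongs to the tubulin tyrosine ligase-like family, had little spread within a time, with 59.6, 60.0 and 60.4 CPM at 0 hr, 92.9, 91.7 and 91.0 CPM at 9 hr and 91.5, 90.2 and 90.8 CPM at 18 hr. With relative log expression (RLE) scaling the 9 hr ratios of *jar* and *CG1550* were 1.498 and 1.497, under the threshold of the rule. *CG42231* (*Hyls1* in the current annotation) encodes a protein of centrioles and cilia. It had 24.5, 25.6 and 32.3 CPM at 0 hr, 63.5, 57.9 and 55.3 CPM at 9 hr and 40.4, 51.2 and 47.9 CPM at 18 hr, and 18 hr lay wholly below 9 hr. *Dhc62B*, a dynein heavy chain, had 13.5, 12.2 and 12.4 CPM at 0 hr, 18.4, 23.3 and 23.2 CPM at 9 hr and 21.1, 20.4 and 26.7 CPM at 18 hr. *unc* is needed for the cilia of mechanosensory neurons and for sperm.

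*RhoGAP102A*, on chromosome 4, encodes a GTPase-activating protein and had the lowest ratio of 18 hr to 9 hr among the members. It had 2.78, 2.55 and 2.53 CPM at 0 hr, 13.0, 11.9 and 12.4 CPM at 9 hr and 8.41, 6.46 and 5.78 CPM at 18 hr. Its ratio to 0 hr was 4.75 at 9 hr and 2.63 at 18 hr. The rule sets the 0 hr libraries apart, and the 18 hr libraries all lay below the 9 hr libraries. That order was shown by 14.6% of all genes above 5 CPM.

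Germline and chromosome genes gave *c(2)M*, *mia* and *ver*. *c(2)M* encodes a part of the synaptonemal complex that joins homologous chromosomes in female meiosis. It had 7.09, 8.27 and 9.27 CPM at 0 hr, 12.6, 12.8 and 13.0 CPM at 9 hr and 11.4, 16.4 and 12.8 CPM at 18 hr, with 18 hr replicate 2 highest. *mia*, a TAF6-like meiotic arrest gene of the testis, had 4.51, 4.32 and 2.80 CPM at 0 hr, 11.6, 8.32 and 8.86 CPM at 9 hr and 8.38, 7.24 and 6.76 CPM at 18 hr. *ver* encodes a protein of the telomere cap. It had 16.3, 17.5 and 16.7 CPM at 0 hr, 32.6, 29.5 and 29.8 CPM at 9 hr and 26.2, 25.2 and 26.5 CPM at 18 hr, with 18 hr wholly below 9 hr. Of 10 germline genes known from *l(3)mbt* brain tumours, all tested and none a member, 1 was called higher and 2 lower at 9 hr, where 2.49% of all genes tested were called higher and 1.19% lower. The counts at 18 hr were the same, beside 0.556% higher and 0.278% lower. The gene called higher was *zpg*, a germline gap junction protein (log2 fold change 1.77, SE 0.24, edgeR adjusted p = 0.0051 at 9 hr, and 1.81, SE 0.24, adjusted p = 0.013 at 18 hr). The genes called lower were *aub*, a Piwi protein of the piRNA pathway (-0.91, SE 0.12, edgeR adjusted p = 0.0045 at 9 hr, and -1.20, SE 0.12, adjusted p = 0.0043 at 18 hr), and *vas*, a germline RNA helicase (-0.63, SE 0.14, edgeR adjusted p = 0.026 at 9 hr, and -0.80, SE 0.14, adjusted p = 0.034 at 18 hr). Levels of these genes were low. *zpg* had 0.64 to 0.86 CPM at 0 hr and 2.1 to 3.1 CPM later, under the 5 CPM asked of members. *aub* went from 7.5 to 8.4 CPM at 0 hr to 3.2 to 4.5 CPM later, and *vas* from 4.8 to 5.6 CPM to 2.8 to 3.5 CPM.

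Among the enzymes, several handle reactive or foreign compounds. *Irc* encodes the immune-regulated catalase, an enzyme that removes peroxide. It had 18.7, 18.1 and 15.5 CPM at 0 hr, 46.6, 44.4 and 45.6 CPM at 9 hr and 44.6, 23.7 and 30.6 CPM at 18 hr. *GstD9*, a glutathione transferase, had 24.3, 26.03 and 23.7 CPM at 0 hr, 57.7, 47.8 and 49.2 CPM at 9 hr and 48.6, 31.4 and 42.6 CPM at 18 hr. *alpha-Est3*, a carboxylesterase, had 4.95, 5.34 and 4.53 CPM at 0 hr, 8.23, 9.34 and 8.44 CPM at 9 hr and 10.5, 5.65 and 8.46 CPM at 18 hr. In all 3 the highest 18 hr value came from replicate 1, the library with the high fat body and hemocyte marker levels, and the part of those cells in these values was not tested. The same held for *CG4476*, which had 28.1, 23.6 and 32.5 CPM at 0 hr, 70.8, 54.0 and 55.8 CPM at 9 hr and 54.0, 37.6 and 41.1 CPM at 18 hr. This order is not particular to these genes. Replicate 1 was also the highest 18 hr library for *jar*, *mia*, *RhoGAP102A*, *CG1550* and *CG2217*, among others. For 24 of the 50 members it was instead the lowest of the 6 later libraries. At 9 hr fat body markers summed to 20.9 CPM in replicate 1 and 311 and 316 CPM in replicates 2 and 3, and hemocyte markers to 161 CPM in replicate 1 and 127 CPM in both others. *GstD9*, *Irc* and *CG4476* were highest in 9 hr replicate 1, and *alpha-Est3* was lowest there.

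*Mocs1*, of molybdenum cofactor synthesis, had 16.8, 14.8 and 16.2 CPM at 0 hr, 31.1, 27.9 and 27.7 CPM at 9 hr and 25.0, 23.6 and 25.4 CPM at 18 hr, with 18 hr wholly below 9 hr. *CG16771* (*Alp12*), an alkaline phosphatase, had 54.8, 61.5 and 59.5 CPM at 0 hr, 92.0, 98.5 and 98.4 CPM at 9 hr and 77.0, 95.1 and 92.5 CPM at 18 hr. Its lowest later value was again in 18 hr replicate 1.

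Proteases and their inhibitors included the serpins *Spn42Dc* and *Spn42Dd*, which lie side by side on chromosome 2R and overlap in their exons, and *Tequila*, a serine protease related to neurotrypsin. *Spn42Dd* had 3.25, 1.87 and 2.26 CPM at 0 hr, 10.4, 9.23 and 9.04 CPM at 9 hr and 5.79, 6.05 and 5.66 CPM at 18 hr. *Spn42Dc* had 13.4, 11.9 and 14.7 CPM at 0 hr, 26.4, 22.9 and 27.1 CPM at 9 hr and 18.2, 22.7 and 22.3 CPM at 18 hr. *Tequila* had 15.3, 12.7 and 15.1 CPM at 0 hr, 31.2, 33.1 and 30.6 CPM at 9 hr and 20.7, 24.9 and 25.7 CPM at 18 hr. In all 3 genes the 18 hr values were wholly under those of 9 hr. The receptor gene *Ir76a*, of the ionotropic family that senses odours, had 4.22, 3.16 and 3.53 CPM at 0 hr, 7.70, 8.65 and 6.45 CPM at 9 hr and 5.47, 5.33 and 5.69 CPM at 18 hr, in the same order.

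No role is given here for the other 24 members, most of which are known by CG numbers. *CG13868*, the highest of them, had 54.6, 61.8 and 81.4 CPM at 0 hr, 110, 125 and 119 CPM at 9 hr and 108, 103 and 116 CPM at 18 hr. *CG8509* rested most on the later time: it had 16.4, 13.0 and 16.6 CPM at 0 hr, 35.1, 28.0 and 25.6 CPM at 9 hr and 21.0, 41.3 and 53.1 CPM at 18 hr, a spread that covered the 9 hr range on both sides. *CG16710* had 5.27, 6.12 and 7.30 CPM at 0 hr, 19.3, 18.9 and 19.8 CPM at 9 hr and 10.8, 14.5 and 16.2 CPM at 18 hr. In it all 18 hr libraries lay below all 9 hr libraries. *CG14183* had 3.69, 3.40 and 5.28 CPM at 0 hr, 11.6, 12.3 and 10.7 CPM at 9 hr and 7.04, 9.85 and 7.97 CPM at 18 hr, again with 18 hr below 9 hr. *CG17258* had 3.31, 3.03 and 3.29 CPM at 0 hr, 7.52, 7.01 and 7.61 CPM at 9 hr and 5.07, 7.04 and 8.13 CPM at 18 hr, with the lowest and the highest later value both at 18 hr. *CG10738*, *CG3323*, *CG4984*, *CG6790*, *CG16789*, *CG32625* and *CG42541* are shown in the plot of all 50 genes.

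*CG34164* owed part of its ratio to 1 library. It had 10, 173 and 261 reads (0.293, 5.89 and 7.03 CPM) at 0 hr, 17.0, 8.90 and 9.61 CPM at 9 hr and 9.26, 10.4 and 8.25 CPM at 18 hr. Its ratio at 18 hr was 2.11 with all libraries and 1.44 without 0 hr replicate 1. Its exons overlap those of *RpL7-like*, which had 155 to 203 CPM over the 9 libraries.

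**Figure D3:**
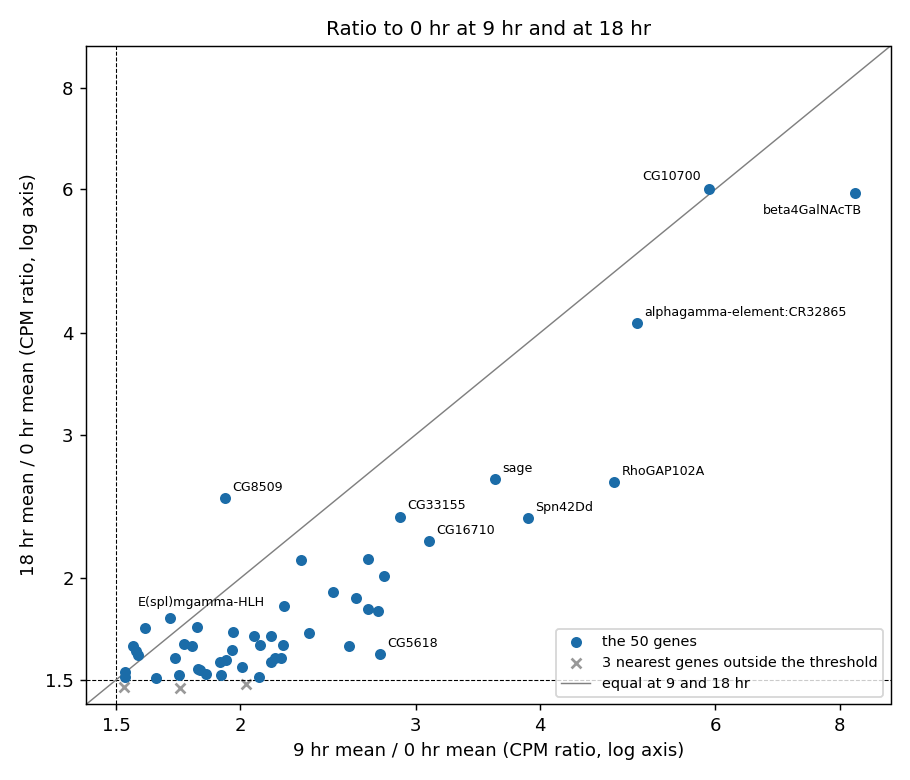
Ratio of the 18 hr mean to the 0 hr mean against the ratio of the 9 hr mean to the 0 hr mean for the 50 genes, both axes on a log scale. Dashed lines mark the threshold of 1.5, crosses are the 3 genes nearest below it, and the solid line marks equal ratios; 42 of the 50 points lie below that line.

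The rule did not fix which of the later times was higher, but the 9 and 18 hr values that chose the genes are also the ones compared here. The comparison of 18 with 9 hr therefore describes the members, and the shares among all genes, which were not chosen on these values, are given as background only. The mean at 18 hr was lower than at 9 hr in 42 of 50 members (84%), against 54.9% of all genes above 5 CPM. In 20 members (40%) all 18 hr libraries lay below all 9 hr libraries, against 14.6% of all genes, in 1 member they lay above, and in 29 they overlapped. The median log2 fold change of 18 over 9 hr was -0.26 for the members and 0.01 for all genes tested.

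No single member passed the test of 18 against 9 hr. With edgeR's quasi-likelihood test over 10799 genes, 0 of the 50 passed both thresholds (adjusted p under 0.05, change of at least 1.5-fold), and 1 gene in all was called (0.00926%). At an unadjusted p under 0.05, 18 members were lower at 18 hr and 0 were higher, where 6.09% of all genes tested were lower, a share that is background and no test of the members. DESeq2 called 4 members, all lower at 18 hr: *RhoGAP102A*, *CG5618*, *Spn42Dd* and *CG2217*. In edgeR their log2 fold changes were -0.83 (SE 0.14, adjusted p = 0.166) for *RhoGAP102A*, -0.75 (SE 0.19, adjusted p = 0.266) for *CG5618*, -0.69 (SE 0.19, adjusted p = 0.298) for *Spn42Dd* and -0.62 (SE 0.11, adjusted p = 0.171) for *CG2217*. *CG5618* had 13.8, 13.5 and 16.6 CPM at 0 hr, 41.9, 43.4 and 35.6 CPM at 9 hr and 20.6, 30.5 and 19.6 CPM at 18 hr. *CG2217* had 11.01, 10.1 and 12.9 CPM at 0 hr, 30.3, 26.5 and 30.5 CPM at 9 hr and 19.4, 18.4 and 18.3 CPM at 18 hr. Neither gene had an 18 hr library that reached the 9 hr range. The positive side was led by *CG8509* (log2 fold change 0.41, SE 0.31), followed by *E(spl)mgamma-HLH* (0.14, SE 0.07), *c(2)M* (0.11, SE 0.17) and *Dhc62B* (0.09, SE 0.13), with edgeR adjusted p between 0.492 and 0.832. For *Dhc62B* and *c(2)M* the sign turned when 1 library was left out. With 3 libraries on each side and 9 hr replicates 2 and 3 nearly the same, these p-values measure the spread between the libraries only.

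The distance from 0 hr was also read in single 9 or 18 hr libraries left out of the choice. The rule was applied to the other 8 libraries, and a gene passed if the left-out library stood at 1.5 times the 0 hr mean or more and above every 0 hr library. The 3 libraries at 0 hr entered both the choice and this reading, so only the left-out library was new to the rule. For 9 hr replicates 2 and 3 even that library had its near copy in the choice. The chosen genes were low at 0 hr by the rule. Their shares are therefore a description and no test, and the shares of all genes are background only. At 9 hr the condition held for 46 of 49 genes in replicate 1, 46 of 50 in replicate 2 and 49 of 49 in replicate 3, although replicates 2 and 3 are near copies of each other. At 18 hr it held for 42 of 47 genes (89.4%) in replicate 3, but for 31 of 57 (54.4%) in replicate 1 and 34 of 58 (58.6%) in replicate 2. Among all genes above 5 CPM, 1.51% to 4.06% met the same condition in the single libraries. Genes that failed in 18 hr replicate 1 included *Non1*, *Ets21C*, *CG16771*, *Tequila* and *Spn42Dc*, and those that failed in replicate 2 included *sta*, *jar*, *GstD9*, *Irc* and *alpha-Est3*. Across the members, 18 hr replicate 1 was the lowest of the 6 later libraries for 24 genes and replicate 2 for 13, and 9 hr replicate 1 was the highest for 26.

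**Figure D4:**
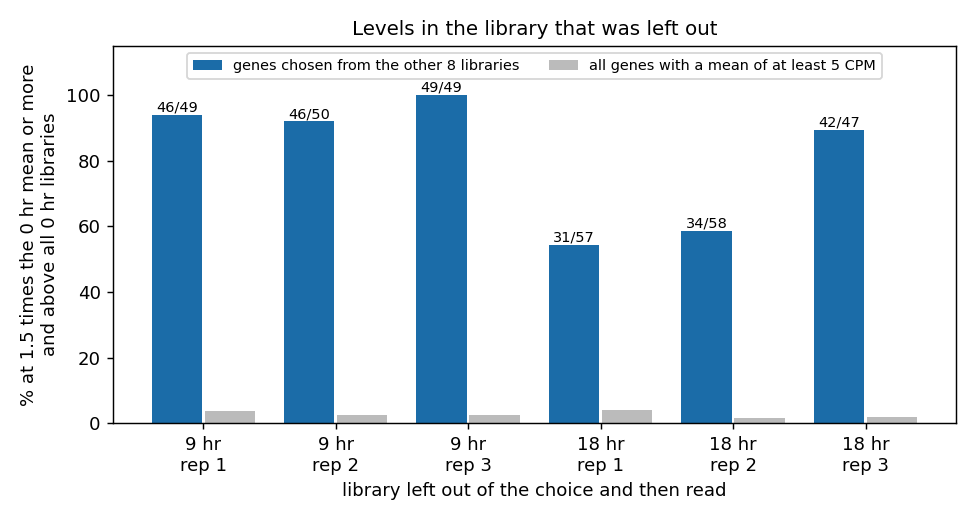
Share of genes, in percent, that stood at 1.5 times the 0 hr mean or more and above all 0 hr libraries in the library named on the x axis, after that library was left out of the choice. Blue bars are the genes chosen from the other 8 libraries, with the number that passed over the number chosen, and grey bars are the genes above 5 CPM; the bars of 18 hr replicates 1 and 2 reach 54.4% and 58.6%.

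Some members share sequence with another gene, and no strand setting is stated for the counting. Of 49 members found in the annotation, 26 (53.1%) share exon sequence with another gene, against 42.2% of the other genes above 5 CPM, and in 15 the partner is on the other strand. The median ratio at 9 hr was 2.12 for members with such an overlap and 2.03 for those without, and at 18 hr it was 1.66 and 1.69. For 25 members the partner was in the table, and the summed CPM of member and each partner reached 1.5 times the 0 hr mean at both times in 7 of them. Among these, *CG2217*, *CG42740*, *Spn42Dc* and *Spn42Dd* have a partner that is itself a member, so the rule fixed that outcome. In the others, *CG18754*, *CG8908* and *Ets21C*, the partner averaged only 1.41, 1.20 and 2.38 CPM and could add little to the sum. The sum lay below its 0 hr level at both times in 4 members. In all 4 the partner had a higher mean CPM than the member. In 3 of them the partner was not lower by 1.5-fold at both times. The ratios of the sum at 9 and 18 hr were 0.939 and 0.930 for *CG42231* with *chif*, 0.981 and 0.994 for *c(2)M* with *CG5861* and 0.936 and 0.901 for *CG34164* with *RpL7-like*. The fourth was *beta4GalNAcTB*. In 2 members, this one and *CG33155*, the partner was lower than at 0 hr by at least 1.5-fold at both times.

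*beta4GalNAcTB* (chr3R:29032660-29034008, minus strand) lies within the span of the antisense transcript *CR45044* (chr3R:29031028-29034098, plus strand). *CR45044* had 41.1, 31.8 and 39.5 CPM at 0 hr, 7.70, 24.2 and 14.1 CPM at 9 hr and 29.4, 10.4 and 24.7 CPM at 18 hr. The sum of both genes was between 35.3 and 42.2 CPM in every library, and its ratio to 0 hr was 0.988 at 9 hr and 0.969 at 18 hr. The largest 9 hr ratio among the members thus had no counterpart in the summed reads of the locus, and the reads of both strands cannot be told apart here.

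*CG33155* shares its whole annotated span (chr2R:13954195-13955664, plus strand) with *mRpL53*, a protein of the mitochondrial ribosome. *CG33155* had 52.9, 16.1 and 18.0 CPM at 0 hr, 90.4, 89.7 and 71.3 CPM at 9 hr and 74.5, 61.2 and 71.4 CPM at 18 hr. *mRpL53* had 22.4, 66.4 and 66.8 CPM at 0 hr, 26.3, 12.9 and 32.9 CPM at 9 hr and 19.1, 20.1 and 14.4 CPM at 18 hr. In 0 hr replicate 1 the member was high and its partner low. The summed level was 1.34 times the 0 hr mean at 9 hr and 1.07 times at 18 hr, below the threshold of 1.5 at both times.

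**Figure D5:**
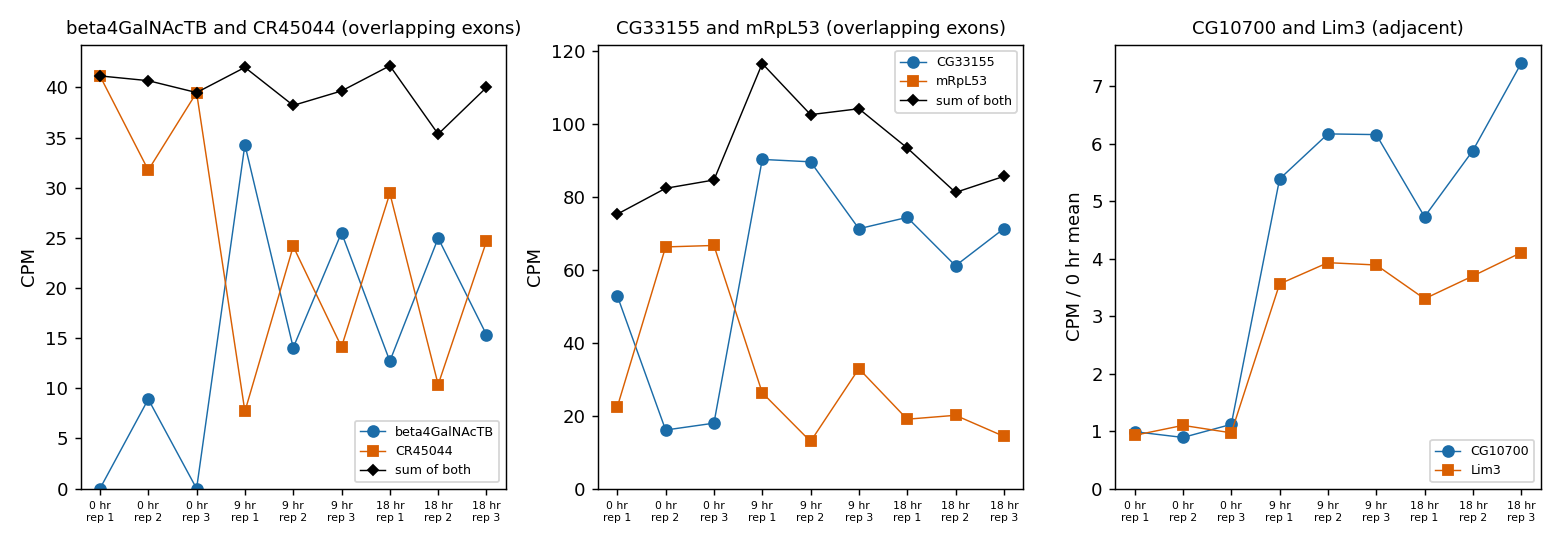
Levels in the 9 libraries of *beta4GalNAcTB* with *CR45044* and of *CG33155* with *mRpL53*, in CPM with the sum of both in black, and of *CG10700* with *Lim3*, each as CPM over its own 0 hr mean. The sum stays between 35.3 and 42.2 CPM in the first panel. *CG10700* and *Lim3* both met the numerical conditions of the rule, so both are high in all 6 later libraries by choice.

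Several members were neighbours. Within 50 kb of another member lay 13 of the 49 (26.5%), in 8 pairs, against 7.01% of the other genes above 5 CPM. *CG16710* and *CG18754* are 76 bases apart on chromosome 3R and point the same way, *CG18749* and *CG15864* are 383 bases apart, and *CG31817*, *CG42231* and *c(2)M* lie in a row on chromosome 2L. *CG2217* and *CG42740* share 1 span and *Spn42Dc* and *Spn42Dd* share exon sequence, so these 2 pairs are not separate observations. The remaining pair is *CG8908* and *CG13868* on chromosome 2R.

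Of 160 genes within 5 kb of a member that are not members and average at least 1 CPM, 8 (5%) stood at 1.5 times the 0 hr mean or more at both times, against 1.91% of all non-members. *Lim3*, a LIM homeodomain factor that the rule leaves out by name, lies on the same strand as *CG10700*. The downstream end of *Lim3* is 227 bases away from *CG10700*. *Lim3* had 57.2, 67.8 and 59.8 CPM at 0 hr, 219, 242 and 240 CPM at 9 hr and 203, 228 and 253 CPM at 18 hr. In both genes replicate 1 was the lowest and replicate 3 the highest library at 18 hr. *SPE*, the protease that activates the Toll ligand Spätzle, overlaps *CG18754* and had ratios of 5.96 and 3.08 at 9 and 18 hr at levels under 3 CPM. The other neighbours were *CG8800* beside *Non1*, *Rab27* near *sta*, *alpha-Est2* beside *alpha-Est3*, *CG17764*, *CG5342* and *CR44169*.

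Of the gene lists, 3 held a member, and most of their other genes did not pass the test. Over all 10799 genes tested, 2.49% were called higher and 1.19% lower at 9 hr, and 0.556% higher and 0.278% lower at 18 hr. Of 13 other Notch targets, 0 were called higher and 1 lower at 9 hr, and 2 higher and 1 lower at 18 hr. *E(spl)mbeta-HLH*, which lies beside *E(spl)mgamma-HLH* in the complex, had 40.4, 51.0 and 48.4 CPM at 0 hr, 63.7, 63.4 and 64.4 CPM at 9 hr and 89.1, 72.7 and 84.0 CPM at 18 hr. It rose at 18 hr (log2 fold change 0.81, SE 0.09, edgeR adjusted p = 0.0081), and at 9 hr its log2 fold change of 0.43 stayed under the fold threshold (SE 0.09, adjusted p = 0.026). *E(spl)m8-HLH* rose at 18 hr as well (0.75, SE 0.12, edgeR adjusted p = 0.024), and *E(spl)m5-HLH* fell at both times, with log2 fold changes of -1.03 (SE 0.17, adjusted p = 0.010) at 9 hr and -0.89 (SE 0.17, adjusted p = 0.047) at 18 hr. The called genes of the complex thus lay on both sides.

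Of 24 other detoxification genes, 1 was called higher at each time and 0 lower. This was *alpha-Est2*, the neighbour of *alpha-Est3*, with 0.791, 0.647 and 0.377 CPM at 0 hr, 4.17, 4.30 and 4.03 CPM at 9 hr and 3.53, 2.90 and 2.07 CPM at 18 hr. Its log2 fold change was 2.76 (SE 0.30, edgeR adjusted p = 0.0026) at 9 hr and 2.23 (SE 0.29, adjusted p = 0.013) at 18 hr. *GstD1*, next to *GstD9*, had 185 to 298 CPM at 0 hr and a log2 fold change of 0.11 at 9 hr (SE 0.21, edgeR adjusted p = 0.761). Of 20 other genes of stress signalling and cell death, the list that holds *Ets21C*, 0 were called higher at either time, and 2 were called lower at 9 hr and 0 at 18 hr.

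The *Hsp70* genes around *alphagamma-element:CR32865* varied widely between replicates. The element (chr3R:12475336-12478267, minus strand) lies between *Hsp70Ba* and *Hsp70Bbb*. *Hsp70Ba* had 16.1, 25.1 and 436 CPM at 0 hr, 74.8, 169 and 179 CPM at 9 hr and 26.99, 323 and 40.3 CPM at 18 hr, with 0 hr replicate 3 and 18 hr replicate 2 as the highest libraries. The *Hsp70* copies are nearly identical, so that reads may be split among them. In the element 0 hr replicate 3, at 3.72 CPM, and 18 hr replicate 2 were also the highest of their times. The rule places every 0 hr library of a member below all later ones, so that order says nothing about heat. Of 19 heat response genes, none a member, 1 was called higher at 9 hr and 0 at 18 hr, beside 2.49% and 0.556% of all genes tested. That gene was the small heat shock gene *Hsp23* (log2 fold change 1.06, SE 0.18, edgeR adjusted p = 0.012 at 9 hr, and 0.37, SE 0.18, adjusted p = 0.351 at 18 hr). *Hsp26* had a like change at 9 hr with more spread and was not called (1.05, SE 0.46, edgeR adjusted p = 0.174). The median log2 fold change of the list at 9 hr was -0.21.

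The median exon length of the members was 2276 bases, against 2367 bases in other genes above 5 CPM, and the median number of exons was 4 in both. Protein coding genes made up 48 of the 49. Chromosome 3R carried 17 members (34.7%), against 24.6% of the other genes, and chromosome X carried 7 (14.3%), against 17.5%.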

How the data were processed

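RNA sequencing of whole *brat*-null larval brains gave 9 libraries, 3 each at 0, 9 and 18 hr, grouped by the sample labels. Per the labels' processing notes and the study's methods, the authors aligned reads to dm6 with HISAT2 2.1.0 and quantified genes with StringTie 1.3.4, and they deposited whole-number counts per gene, not normalized. Annotation version and strand setting are not given in the sources used here. The deposited table has 0 columns from other series.

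CPM here is the count over the library total times 1000000. Members were found by the rule in the report. The members and gene lists were chosen with earlier results of these data known, and roles were assigned by hand after the names were seen. Genes named with values were the 4 highest by mean CPM in each role group, the 12 with the largest smaller ratio, the 4 that differed most each way between 18 and 9 hr, those nearest the threshold and those on the lists. DESeq2 calls, neighbours and overlap partners were named after their values were seen.

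Differences were tested with edgeR 4.0.16 in R 4.3.3 (filterByExpr, TMM, glmQLFit and glmQLFTest over all 9 libraries) with Benjamini-Hochberg adjustment over 10799 genes. A gene was called where the adjusted p was under 0.05 and the change at least 1.5-fold. The fit was tested on simulated data. An exact permutation test of 3 against 3 libraries cannot go below p = 0.1. Nothing states whether a number links replicates across times, and same-numbered libraries did not deviate together (correlations of -0.276 to 0.387, over 0.1 in 1 of 9 pairs). Alternatives were DESeq2 1.42.0, other scalings, filters and thresholds, the compared libraries alone, the 9 hr pair merged, a replicate block and each library left out.

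Table names were matched to the Ensembl annotation of dm6: 11086 as current symbols, 1081 with an lncRNA prefix and 2240 as synonyms, with 153 unmatched, among them *Tequila*. Sequences were not used here.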

Additional observations from a re-analysis of the deposited data

How the results depend on the processing

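The number of members was 50. It was 119 with a minimum of 1 CPM, 11 with a fold of 2 and 78 with the fold alone, and 47 to 71 when a library was left out. A replicate block gave 63 genes, all 50 members among them, but the replicate numbers are not shown to pair the libraries (same-numbered correlations of -0.276 to 0.387).

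Genes called at 9 against 0 hr numbered 398, or 1279 by adjusted p alone, 201 with the 9 hr pair summed and 187 to 453 with a library left out (223 without 0 hr replicate 2, and 187, 214 and 211 without 9 hr replicates 1, 2 and 3). At 18 against 0 hr there were 90 calls, against 179 by adjusted p alone, 199 by DESeq2, 25 from the compared libraries alone, 50 with the replicate block, 49 with the pair summed and 35 to 121 with a library left out (44, 50 and 57 without 0 hr replicates 1, 2 and 3, 50 and 45 without 9 hr replicates 2 and 3, and 35 without 18 hr replicate 3). At 18 against 9 hr there was 1 call, against 37 by DESeq2, 0 from the compared libraries alone, 0 with the replicate block and 0 to 4 with a library left out (2, 4 and 4 without 9 hr replicates 1, 2 and 3, and 0 and 2 without 18 hr replicates 2 and 3). Members called at 18 against 9 hr were 0, and 4 by DESeq2. Members at an unadjusted p under 0.05 were 18, and 10 to 21 with a library left out, the 10 without 9 hr replicate 1. Members lower at 18 than at 9 hr were 42, and 41 to 45 with a library left out. The cause of these changes was not tested.

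The log2 fold change of *Dhc62B* at 18 against 9 hr was 0.09, but -0.015 without 9 hr replicate 1 and -0.038 without 18 hr replicate 3, in a range of -0.038 to 0.16 with a library left out. That of *c(2)M* was 0.11, but -0.072 without 18 hr replicate 2, in a range of -0.072 to 0.24. Of 430 ratios of 36 named members with a library left out, 23 fell below 1.5. No ratio could be given for *beta4GalNAcTB* without 0 hr replicate 2, which held all its 0 hr reads. Ratios of *CG33155* without 0 hr replicate 1 were 4.92 at 9 hr and 4.05 at 18 hr, against 2.89 and 2.38. Other scalings moved no named ratio by over 3.09%, but the 9 hr ratios of *CG1550* (1.497) and *jar* (1.498) fell below 1.5 with RLE scaling, so that both left the set. *CG16789* left it with TMM and RLE scaling, and *jar* and *CG18754* left it with 9 hr replicates 2 and 3 averaged. The settings for members at an unadjusted p, for members lower at 18 hr and for named ratios were chosen after seeing the data. Counts under about 150 reads and the near-copy at 9 hr limit the precision.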
